A study of Mus musculus with 19 samples.

Results

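Colon tumours of Apc mutant mice were compared with colon of wild-type mice by RNA sequencing. The comparison was defined by the genotype labels and holds 12 of the 19 samples of the series. The 7 Apc tumours were taken 1 per mouse from 3 females and 4 males in which Villin-Cre, a recombinase active in gut epithelium, had removed 1 allele of Apc. The 5 wild-type samples were colon of 3 females and 2 males, and all mice were 12 weeks old. The remaining 7 samples were tumours of mice that had also lost both alleles of Tgif1 and Tgif2. They served only in the filter below and in the fit's estimates of sex and of the spread within groups. Every gene was examined that reached 10 normalized counts in at least 5 of the 19 libraries, which held for 18445 of the 32694 gene symbols in the table. Villin-Cre acts in epithelium, so the deletion was not made in the muscle, nerve, vessel and immune cells of these tumours. The labels do not say whether tumour cells had lost the second allele, which layers of the wild-type colon were taken, or where along the colon each sample came from. Tumour-free colon of Apc mutant mice was not analysed here, so the effects of the genotype and of tumour growth cannot be told apart.

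Apc is the scaffold of the complex that marks beta-catenin for destruction. When Apc is lost, beta-catenin reaches the nucleus, joins the TCF and LEF factors and switches on the Wnt programme that normally runs only at the base of the crypts, where stem cells divide. Cells that leave the crypt base switch this programme off and become absorptive colonocytes, which take up salt, water and butyrate, or secretory cells, chiefly goblet cells, which make the mucus layer, and the rarer hormone-producing enteroendocrine cells and chemosensory tuft cells. Paneth cells, which secrete antimicrobial peptides beside the stem cells, belong to the small intestine and are normally missing from the mouse colon.

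The 12 libraries held between 34559696 and 44732717 normalized counts, or about 31060072 to 49127510 reads. The reads were estimated by taking the most frequent low value of each library, finely adjusted, as 1 read. The first principal component of the log values carried 66.2% of the variance of these libraries and set the tumours apart from wild-type colon. Wild-type libraries lay between -113 and -104 on it. The tumours lay between 72.9 and 105 except replicate 6, a tumour of a male, which lay at 36.0, and its values are named where they stand apart. Rn45s, the ribosomal RNA precursor, had 88085, 1200365, 90658, 1564234 and 102981 normalized counts in the wild-type libraries and between 64289.6 and 253407, with a median of 99022, in the tumours. Wild-type replicates 2 and 4 were thus far above all others, Rn45s did not pass the test (-1.38 on the log2 scale, limma adjusted p = 0.218), and results were also computed without these 2 libraries.

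The deleted gene was examined first. Apc (chromosome 18, 34220924 to 34322552, GRCm38) had 7803, 5779, 5989, 4168 and 5114 normalized counts in the wild-type libraries, written here and below as the 3 females followed by the 2 males. In the tumours it lay between 4845 and 7674, with a median of 6220.0. The groups overlapped, and Apc did not pass (0.18 on the log2 scale, SE 0.154, adjusted p = 0.363 by limma). Which exons were deleted is not stated in the labels, and reads from the rest of the gene still count, so this total does not check the genotype. Every adjusted p of a gene comes from the limma fit described under processing, where SE is the standard error of a log2 fold change on the log2(normalized count + 1) scale.

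The labelled tissue carried its markers in both groups. Epcam, the adhesion molecule of epithelial cells, had 61177, 55214, 66027, 80047 and 67353 normalized counts in wild-type colon and between 58733 and 85689, with a median of 63713, in the tumours. It did not pass the test (limma adjusted p = 0.99) but passed as higher by 0.29 on the log2 scale with libraries scaled to the pan-epithelial genes and by 0.52 after quantile normalization. Of 18 genes expressed throughout the epithelium, 2 rose and 10 fell, and their summed level lay between 641689.9 and 802876 normalized counts in wild-type colon and between 380327 and 727246 in the tumours. The balance of that list depended on the scaling: 3 rose and 4 fell with library totals made equal, and 4 rose and 4 fell with libraries scaled to the list itself. Hoxb13, a homeobox gene of the hindmost gut, lay between 13466 and 16616 in wild-type colon and between 1088 and 9351 in the tumours, and fell by 2.12 on the log2 scale (SE 0.457, adjusted p = 0.000825 by limma). Among 19 genes of the small intestine, the enterocyte genes Fabp1, Apoa1, Apoa4, Lct, Sis and Slc2a2 did not reach the level needed for testing. Of the 13 tested, 5 rose and 3 fell. Relative to the wild-type mean, their mean log2 level was at most 0.23 in wild-type libraries and 0.48 to 2.08 in the tumours. That mean weighs members with very large changes, up to 9.81 on the log2 scale, and the median of the 13 was 0.310. Their summed level overlapped between the groups, at 11796 to 20314 normalized counts in wild-type colon and 7359 to 43327 in the tumours.

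In all, 4415 genes, or 23.9% of those tested, were higher in the tumours and 4639, or 25.2%, were lower, together 49.1%. Over 2-fold differences were called higher for 1962 genes (10.6%) and lower for 2673 (14.5%). Over 8-fold differences were called higher for 473 genes (2.56%) and lower for 537 (2.91%). All 7 tumours lay above all 5 wild-type libraries for 2579 genes (14.0%) and below them for 2840 (15.4%). The split depended on the scaling. With equal library totals, which moved the median of all genes up by 0.201, 6160 genes were higher and 3417 lower, and with libraries scaled to the pan-epithelial genes, a shift of 0.2945, these were 6667 and 3032. Wild-type libraries gave a larger share of their reads to few genes: the 10 most abundant took 10.3% ± 2.05 (SD, n = 5) of their totals, against 6.62% ± 1.07 (SD, n = 7) in the tumours. With 49.1% of all genes called, a gene list is described below by its counts and its median. These can be set beside these shares and a median of -0.012 over all genes, as a description and not a test. The lists were chosen with earlier results of these data known. A gene near 0 in wild-type colon reached the tested level through tumour libraries, so it could hardly be called lower.

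**Figure D1:**
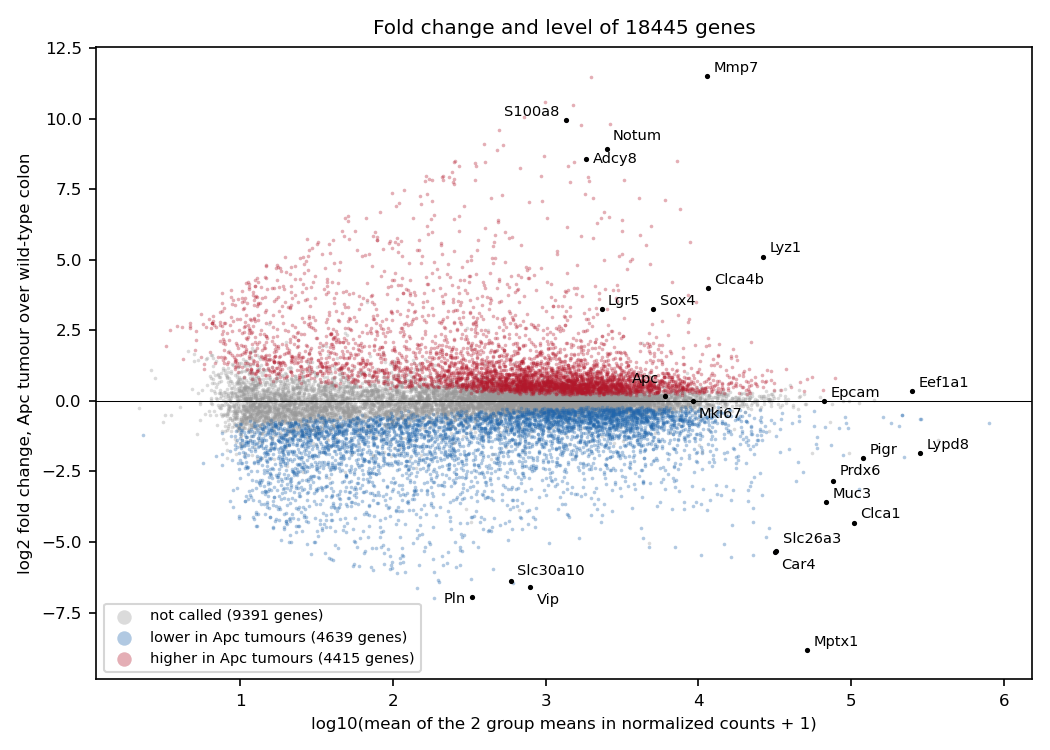
Log2 fold change of Apc tumours over wild-type colon (vertical axis) against the log10 of the mean level in normalized counts (horizontal axis) for 18445 genes, each a point, with genes called higher in red (4415), lower in blue (4639) and not called in grey (9391). Mmp7 lies at the top with 11.52 and Mptx1 at the bottom with -8.84, while Apc and Epcam lie near 0.

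Wnt feedback genes and targets were higher in the tumours almost without exception. Of 25 tested, 24 rose and none fell, with a median log2 fold change of 2.874, and 21 did not overlap between the groups. By role, all 9 feedback inhibitors, all 8 transcription factors and 7 of 8 surface and cell cycle targets rose. Axin2, the inhibitor most often used as a readout of Wnt signalling, had 1322, 1492, 1609, 1469 and 1139 normalized counts in wild-type colon and between 6599 and 14877, with a median of 9485, in the tumours. Every tumour exceeded every wild-type library, and Axin2 rose by 2.83 on the log2 scale (SE 0.219, adjusted p = 6.3e-09 by limma). Nkd1, which restrains Dishevelled, had 706, 478, 795, 671 and 492 in wild-type colon and between 2882 and 18123, with a median of 12827, in the tumours, and rose by 4.20 on the log2 scale (SE 0.365, adjusted p = 3.21e-08 by limma). Wif1, a secreted protein that binds Wnt ligands, had 75.9, 70.3, 76.7, 90.5 and 73.3 in wild-type colon. Its tumour values were 10513, 15058, 15542, 13654, 12119, 2748 and 13962 for replicates 1 to 7, so that replicate 6 stood lowest by a wide margin and still far above wild-type colon. Wif1 rose by 7.11 on the log2 scale (SE 0.332, adjusted p = 8.63e-12 by limma). Notum, the lipase that inactivates Wnt ligands, had 6.5, 9.37, 5.55, 22.2 and 5.19 in wild-type colon and 3596, 4642, 4189, 6185, 6729, 1917 and 7829 in the tumours, again with replicate 6 lowest. Dkk2, a secreted inhibitor of the Wnt co-receptors, went from 51 ± 14.4 to 4525 ± 1271 (mean ± SD over 5 wild-type libraries and 7 tumours, as in all such pairs below). Rnf43 and Znrf3, ligases that remove Wnt receptors from the cell surface, went from 1566 ± 417 to 7932 ± 1193 and from 873 ± 231 to 2848 ± 934, and Apcdd1, a membrane inhibitor, from 151 ± 36.2 to 8973 ± 7262.

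Among the transcription factors of the Wnt list, Sp5 showed one of the widest separations. Sp5 is a zinc finger repressor switched on directly by beta-catenin. It had 6.31, 6.85, 2.61, 5.75 and 3.42 normalized counts in wild-type colon and between 363 and 2096, with a median of 870.1, in the tumours, and rose by 7.30 on the log2 scale (SE 0.396, adjusted p = 5.03e-11 by limma). Prox1, a homeobox factor, had 53.6, 30.5, 61.1, 27.5 and 45 in wild-type colon and between 2003 and 8408, with a median of 5232, in the tumours, and rose by 6.71 on the log2 scale (SE 0.34, adjusted p = 2.19e-11 by limma). Sox4, a factor of progenitor cells, varied little within the groups: it had 1219, 977, 997, 800.4 and 837 in wild-type colon and between 8314 and 11055, with a median of 8999, in the tumours. Tcf7 and Lef1, which carry beta-catenin to DNA, went from 328 ± 34.4 to 2407 ± 435 and from 115 ± 21.7 to 954 ± 382. The growth regulator Myc and the progenitor factor Sox9 moved less, from 1194 ± 185 to 2964 ± 658 and from 3238 ± 386 to 5374 ± 824, but without overlap between the groups. 

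Of the other targets in that list, Cd44, a hyaluronan receptor, went from 2199 ± 313 to 8795 ± 2606, Ccnd1, which encodes cyclin D1, from 4606 ± 549 to 9761 ± 1637, and Ephb2, a receptor that positions cells along the crypt, from 2811 ± 341 to 4683 ± 603. Tnfrsf19, a TNF receptor family member of crypt base cells, went from 193 ± 94.8 to 2052 ± 1013, and its groups overlapped because of 1 tumour, replicate 6, at 331. Ccnd2, which encodes cyclin D2, was the member that did not pass, with a log2 fold change of -0.52 (SE 0.286, adjusted p = 0.144 by limma). Ctnnb1, which encodes beta-catenin itself and was not in the list, rose by 0.68 on the log2 scale (SE 0.0968, adjusted p = 1.01e-05 by limma).

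The promoter windows of the Wnt list were searched for the TCF/LEF motif CTTTGAT on both strands, in the 250 bases before each RefSeq start site (GRCm38.p6). Of the 25 genes, 16 had a window and 3 of these (18.8%) held the motif, against 2.96% of the tested genes with a window and 3.21% of all windows. These were Sp5, Tnfrsf19 and Mmp7, and the windows of the last 2 belong to start sites inside the gene. The Sp5 window (chr2:70474673-70474922, plus strand) is shown because Sp5 was near 0 in wild-type colon and its window lies outside the gene. It is printed 5′ to 3′ with the motif in capitals, 104 bases before the start:
Sp5: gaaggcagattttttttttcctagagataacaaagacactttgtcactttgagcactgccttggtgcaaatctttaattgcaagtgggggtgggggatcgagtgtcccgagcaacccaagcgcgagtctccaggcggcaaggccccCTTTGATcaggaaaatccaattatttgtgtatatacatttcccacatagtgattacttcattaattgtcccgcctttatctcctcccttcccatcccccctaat
A match describes these letters, and binding was not measured here.

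Crypt base stem cell genes mostly rose: 12 of 17 did and 4 fell, with a median of 0.985. Lgr5, the receptor that marks the stem cells of the crypt, had 626, 528, 393, 265 and 379 normalized counts in wild-type colon and between 1489 and 6094, with a median of 4459, in the tumours. No tumour reached down to the wild-type range, and Lgr5 rose by 3.26 on the log2 scale (SE 0.312, adjusted p = 9.67e-08 by limma). Msi1, an RNA-binding protein of stem cells, had 7.9, 9.54, 20.2, 13.3 and 18.6 in wild-type colon and 365, 211, 212, 404, 147, 31.4 and 442 in the tumours, with replicate 6 far below the others. Igfbp4, a binding protein of insulin-like growth factors, went from 4022 ± 936 to 18977 ± 6166, Smoc2, a matrix protein, from 1864 ± 278 to 7512 ± 2972, Prom1, a membrane protein of progenitors, from 6123 ± 494 to 18669.8 ± 8216, and Hopx, a homeodomain protein linked to slowly cycling cells, from 1428 ± 178 to 2986 ± 515. Olfm4, a stem cell marker of the small intestine and of human colon, passed as higher but was scarce, at 5.2, 5.77, 13.7, 10.6, 14.1, 8.52 and 33.1 in the tumours. The members that fell were Aqp4, a water channel (-2.16), the BMP co-receptor Rgmb (-0.93), Lrig1, an inhibitor of EGF receptors (-0.76), and Lgr4 (-0.57), the broadly expressed relative of Lgr5, the values in parentheses being log2 fold changes here and below. The call of Lgr4 was lost with equal totals, with pan-epithelial scaling and in males alone (limma adjusted p = 0.0669, 0.217 and 0.155). That of Lrig1 was lost in males alone (limma adjusted p = 0.131).

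Genes of the foetal-like and regenerative state of gut epithelium also rose, 15 of 18, with 1 lower and a median of 1.793. Anxa1, an annexin of repair, had 7715, 8188, 9558, 8541 and 8265 in wild-type colon and between 20024 and 29376, with a median of 23861, in the tumours. Every tumour lay above every wild-type library, and Anxa1 rose by 1.51 on the log2 scale (SE 0.135, adjusted p = 3.81e-08 by limma). Il11, a cytokine of injured gut, went from 23 ± 12.9 to 1343 ± 1248 and Krt7, a keratin, from 4653 ± 705 to 17896 ± 2199.6. The YAP targets Ctgf and Cyr61 went from 1359 ± 361 to 3354 ± 1547 and from 414 ± 151 to 1757 ± 513. Clu, a chaperone of revival stem cells, went from 4869 ± 1919 to 16346 ± 8369 with overlapping groups. Ly6a, the most used marker of this state, had a log2 fold change of -0.07 (SE 0.274, adjusted p = 0.843 by limma) and S100a6 a log2 fold change of 0.06 (SE 0.193, adjusted p = 0.822 by limma), so neither passed, while Anxa3 fell by 0.73 on the log2 scale (SE 0.129, adjusted p = 0.000119 by limma).

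**Figure D2:**
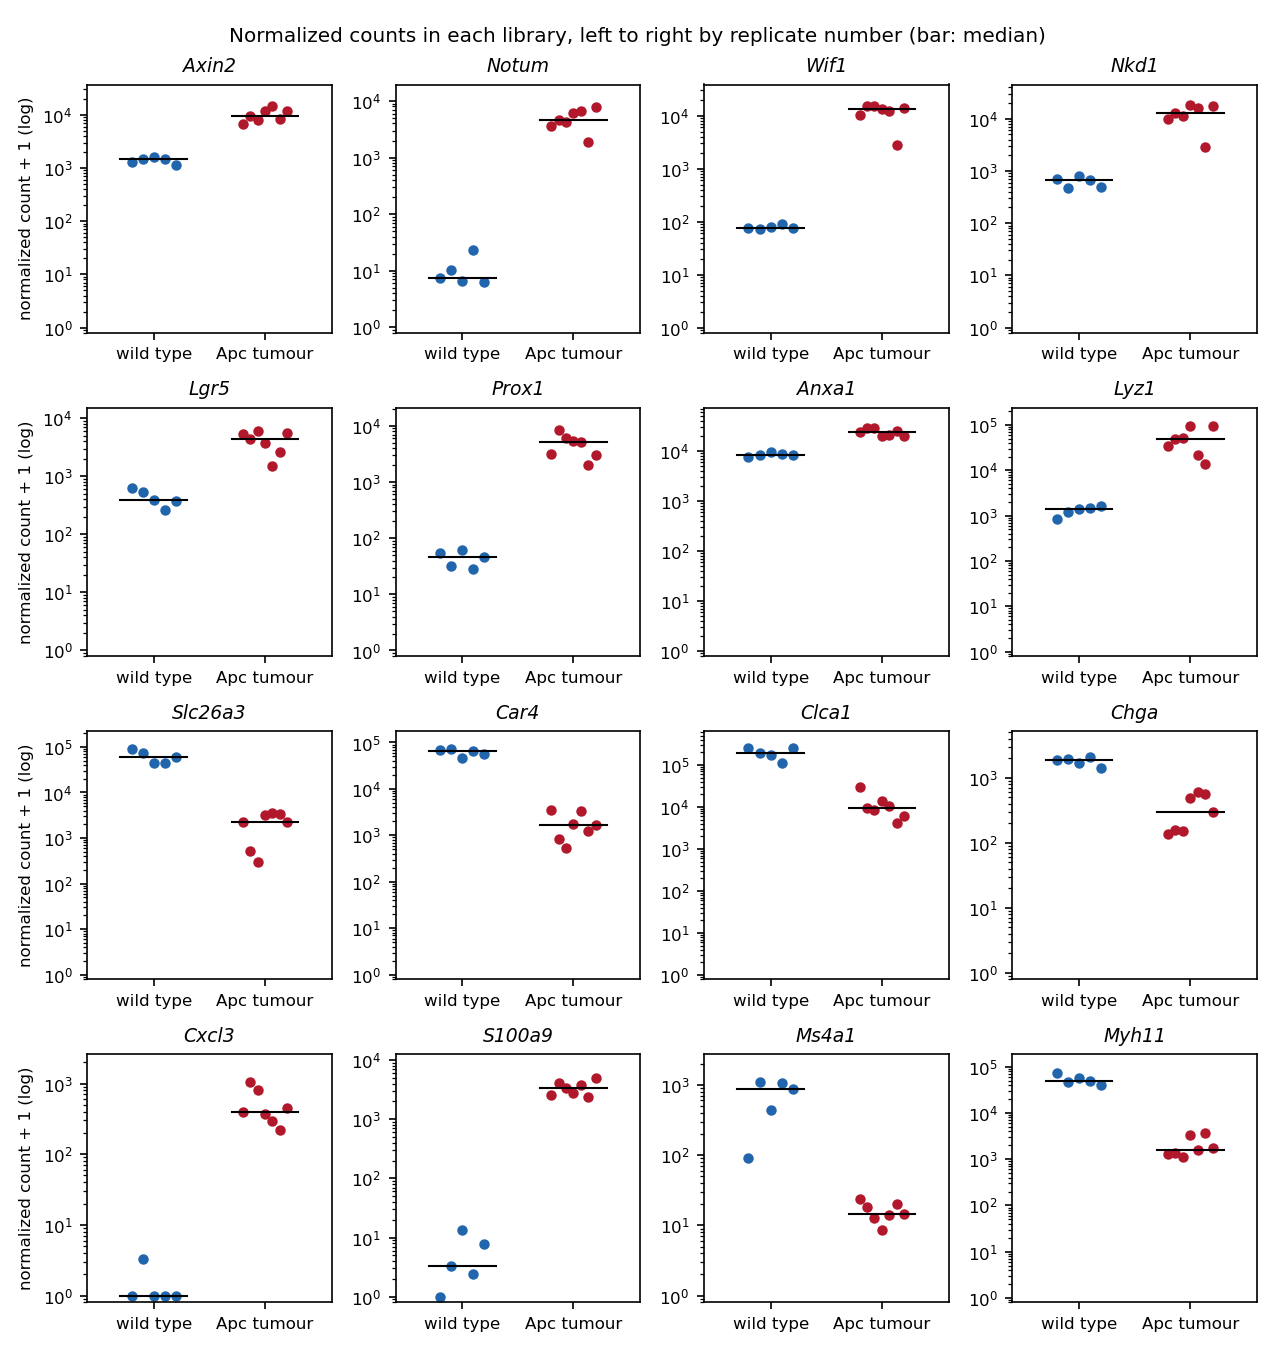
Normalized counts + 1 on a log axis for 16 genes in the 5 wild-type libraries (blue) and the 7 Apc tumours (red), 1 point per library in order of replicate number within each group, with a bar at the group's median. The groups do not overlap in any panel. Replicate 6 is the lowest tumour in panels that include Notum, Wif1, Nkd1, Prox1, Lyz1, Cxcl3 and S100a9.

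Paneth cell genes rose with 1 exception. Of 14 tested, 13 rose and none fell, with a median of 7.905, and the summed level of the list lay between 3733 and 19719 normalized counts in wild-type colon and between 24386 and 192989.6 in the tumours. All 8 alpha-defensins tested rose. Defa17, Defa20 and Habp2 were listed at 0 in the 5 wild-type libraries. They passed the filter only through tumour libraries, so they could not come out lower. In the tumours Defa17 had 2313, 3170.4, 5148, 8776, 1919.7, 182 and 6356 normalized counts, Defa20 had 152, 1509, 1624, 947, 991, 144 and 1499, and Habp2, a serine protease, 1416, 1412, 1006, 2032, 337, 219 and 3658. Replicate 6 had the least Defa17 and was well below the other tumours. Defa24 was above 0 in 1 wild-type library and had 1769.8, 1779.7, 3987, 6662, 1606, 95.6 and 5128 in the tumours. Alpha-defensin genes are near-identical copies that share reads, so the values of single members are uncertain. Mmp7, the metalloproteinase that activates them, had 5.36, 8.49, 5.55, 3.05 and 8.47 in wild-type colon and between 4851 and 44687, with a median of 24855, in the tumours, and rose by 11.52 on the log2 scale (SE 0.469, adjusted p = 1.48e-12 by limma). Lyz1, the lysozyme of Paneth cells, was not absent from wild-type colon, at 855, 1201, 1370.1, 1489 and 1645, and lay between 13649 and 96046, with a median of 48655, in the tumours. Itln1, an intelectin, went from 156 ± 98.9 to 6131 ± 3450.3 and the phospholipase Pla2g2a from 240.4 ± 185 to 7119.6 ± 3823. Ang4, an angiogenin of Paneth and goblet cells, was as abundant in wild-type colon as in tumours, with a log2 fold change of -0.16 (SE 0.584, adjusted p = 0.836 by limma). Among small-intestinal genes outside that list, the antimicrobial lectins Reg3b and Reg3g went from 2.44 ± 1.92 to 5255 ± 6955 and from 22.1 ± 15.6 to 6465 ± 5823. Reg3b varied widely among the tumours, with 19865, 836, 5745, 2312, 237, 777 and 7016. Cubn, an endocytic receptor of the ileum, went from 47.8 ± 9.6 to 1439 ± 625, while the ileal bile acid binder Fabp6 fell by 2.54 on the log2 scale (SE 0.523, adjusted p = 0.000515 by limma) and the glucose transporter Slc5a1 fell by 1.72 on the log2 scale (SE 0.185, adjusted p = 4.12e-07 by limma).

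Among the genes with the 10 largest losses in mean normalized counts, clone names and immunoglobulin segments left out, 8 passed the test as lower, and Rn45s, described above, and Lars2 did not. Reads are not divided by transcript length, so the order of genes is one of reads. Lypd8, a protein that keeps bacteria from the epithelium, had 362183, 413729, 365495, 515102 and 468652 normalized counts in wild-type colon and between 63025 and 267087, with a median of 133063, in the tumours, and fell by 1.85 on the log2 scale (SE 0.3, adjusted p = 4.81e-05 by limma). Clca1, a mucus-processing protease of goblet cells, had 256749, 188719, 169215, 112534 and 249959 in wild-type colon and between 4223 and 29223, with a median of 9674, in the tumours. All tumours lay far below all wild-type libraries for Clca1, which fell by 4.31 on the log2 scale (SE 0.678, adjusted p = 3.56e-05 by limma). Sprr2a1, a small proline-rich protein with close copies, went from 335825 ± 86499.6 to 108017 ± 84388, Fcgbp, a component of mucus, from 196511 ± 60542 to 27545 ± 13438, Pigr, the receptor that carries IgA across the epithelium, from 191786 ± 31869.5 to 46915 ± 12254, Prdx6, a peroxiredoxin, from 132205 ± 16606 to 20172 ± 7331, and the membrane mucin Muc3 from 124267 ± 29768 to 13448 ± 7494. Mptx1, a mucosal pentraxin, had 90659.7, 130903, 53182, 142366 and 94515 in wild-type colon, and 1379.6, 311, 125, 15.8, 707, 1326 and 13.7 in the tumours. Replicates 4 and 7 had the least of it. Lars2, with a mean loss of similar size, did not pass (-1.85, limma adjusted p = 0.119): wild-type replicates 2 and 4, the libraries rich in Rn45s, had 192936 and 253038 and the others 11984 to 14620.4. All of the genes with the 10 largest gains passed as higher. The translation factor Eef1a1 went from 220511 ± 16912 to 279222 ± 29530.2, the chaperone Hsp90ab1 from 57089 ± 13033 to 98879.6 ± 19153, the poly(A)-binding protein Pabpc1 from 39658 ± 1211 to 71848 ± 11277, the annexin Anxa2 from 23015 ± 2682 to 51552 ± 8335, the nuclear protein Ptma from 37460.0 ± 4275 to 65035 ± 9567 and the matrix protein Fn1 from 17785 ± 5207 to 38725 ± 13028. Lyz1, Mmp7 and Ctnnb1 were among the 10 largest gains as well, as was Clca4b, a chloride channel accessory protein whose paralog Clca4a did not pass (-0.39). Clca4b went from 1665 ± 1316 to 21562 ± 8151. The call of Eef1a1 was lost without wild-type replicate 2 (limma adjusted p = 0.0526).

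Absorptive colonocyte genes fell in 31 of 41 cases, rose in 3 and had a median of -1.763. Their summed level lay between 1120272 and 1408869.7 normalized counts in wild-type colon and between 212419 and 661624 in the tumours, without overlap. Of 18 genes of ion and water transport, 15 fell and none rose. Slc26a3, which exchanges chloride for bicarbonate, had 89473, 73389, 44348, 44947 and 60686 in wild-type colon and 2299.9, 526, 303, 3130.3, 3604, 3387 and 2289 in the tumours, with replicates 2 and 3 lowest. It fell by 5.33 on the log2 scale (SE 0.609, adjusted p = 8.87e-07 by limma). Aqp8, a water channel, went from 28067 ± 10039 to 1396 ± 1043, the potassium pump Atp12a from 43732 ± 3073 to 1879.6 ± 2104, the sodium channel subunit Scnn1a from 7868 ± 939 to 1913 ± 982 and the sulphate transporter Slc26a2 from 29698 ± 14648 to 2835 ± 1585. Nr3c2, the mineralocorticoid receptor, and Hsd11b2, the enzyme that keeps glucocorticoids from it, went from 4227 ± 1427 to 831 ± 376 and from 11693 ± 2987 to 3618 ± 2114. The sodium-proton exchanger Slc9a3 had a log2 fold change of 0.02 (SE 0.351, adjusted p = 0.969 by limma) and did not pass.

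Among surface enzymes of colonocytes, Car4, a membrane-bound carbonic anhydrase, had 67209, 70617, 45937, 65711 and 56341 in wild-type colon and between 531 and 3448, with a median of 1656, in the tumours. Its relative Car2 went from 42028 ± 7514 to 8747 ± 5075 and the phosphate transporter family member Slc37a2 from 13654 ± 3833 to 438 ± 257. Tgm3, a transglutaminase of the surface, went from 54468 ± 12116 to 3517 ± 3205, Saa1, an acute-phase protein, from 38169 ± 13972 to 5044 ± 2433, and the keratin Krt20 from 35298 ± 10214 to 16586 ± 9579 with overlap. The call of Krt20 was lost without wild-type replicate 4, or tumour replicate 2 or 3 (limma adjusted p = 0.0625 to 0.0647, each left out alone). The 3 members that rose were Clca4b, given above, Emp1, an epithelial membrane protein, which went from 6207 ± 1214 to 18919.6 ± 11960.4, and Dhrs9, a retinol dehydrogenase, which went from 153 ± 79.8 to 2024 ± 989.

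Of 28 genes of drug and xenobiotic metabolism, 24 fell and 1 rose, with a median of -2.405. Sult1a1, a sulphotransferase, went from 7965 ± 1384 to 423 ± 276, the carboxylesterase Ces2c from 14732 ± 2751 to 1341 ± 729.7, the cytochrome P450 Cyp3a13 from 4845 ± 627 to 856 ± 589, the glutathione transferase Gstm1 from 12298 ± 943 to 2743 ± 665, the alcohol dehydrogenase Adh1 from 46094 ± 2909 to 5868 ± 4362 and Abcb1a, the efflux pump P-glycoprotein, from 29517 ± 7623 to 4108 ± 2651. These belong to families of close copies, so the split of reads between members is uncertain. Gsta4, which detoxifies lipid aldehydes, was the member that rose, and went from 933 ± 50.1 to 3901 ± 1021. Replicates 2 and 3 had the lowest mean log2 level of this list, -3.32 and -3.26 relative to the wild-type mean, against -2.13 to -1.22 in the other tumours.

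Transcription factors of intestinal identity were mostly lower. Of 22, 13 fell and 2 rose, with a median of -1.064. Hnf4a, a nuclear receptor that drives absorptive genes, had 39950.4, 31876, 38728, 30929 and 34033 in wild-type colon and between 9697 and 19264, with a median of 13618, in the tumours, and fell by 1.40 on the log2 scale (SE 0.151, adjusted p = 4.18e-07 by limma). Vdr, the vitamin D receptor, went from 15756 ± 3338 to 2258 ± 1185, Klf4, a factor of goblet cells and the crypt surface, from 32426 ± 4580.3 to 8373 ± 4292, and the homeobox factor Cdx1 from 11515 ± 1235 to 4904 ± 2431. Cdx2, the master factor of hindgut fate, had 2114 ± 858 in wild-type colon and 1775 ± 1915 in the tumours and did not pass, with a log2 fold change of -1.43 and values in the tumours between 124 and 4311, with a median of 541. Isx, a homeobox repressor of vitamin A uptake, rose, from 18 ± 10.2 to 434 ± 209.5, as did Foxa1, from 3279 ± 304 to 5215 ± 374.

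Goblet cell genes were mostly lower. Of 20, 11 fell and 1 rose, with a median of -1.065. Of 13 genes of mucus and secretion 9 fell, with a median of -1.186. Of 7 fate factors 2 fell, 1 rose and 4 were not called, where 25.2% of all genes were called lower. Their median was -0.747. With the 12 libraries fitted alone, 5 of the 7 fate factors and 9 of the 13 mucus and secretion genes fell. In that setting 5134 of all 18445 genes were lower. The mucus products Zg16, Tff3 and Agr2 went from 70388 ± 26930.3 to 18967 ± 11864, from 26086 ± 7440.1 to 8263 ± 2414 and from 29694 ± 3297 to 14244 ± 6157, and the kallikrein Klk1 from 37711 ± 4778 to 4751 ± 2039. Muc2, the gel-forming mucin of the colon, did not pass: it had 74642, 80492, 77185, 65122 and 105836 in wild-type colon and between 16882 and 136464, with a median of 43726, in the tumours, with a log2 fold change of -0.76 (SE 0.493, adjusted p = 0.209 by limma). Atoh1, which commits cells to the secretory lineage, fell by 1.61 on the log2 scale (SE 0.328, adjusted p = 0.00047 by limma), and Creb3l1, a factor of secretory capacity, went from 9564 ± 1006 to 2878 ± 880.2. Spdef, which matures goblet cells, did not pass (-0.75), and Foxa3 rose by 0.58 on the log2 scale (SE 0.199, adjusted p = 0.0212 by limma), a call lost without wild-type replicate 5 (limma adjusted p = 0.0572). Of 27 genes of mucin glycosylation, 13 fell and 3 rose. B3gnt7, an N-acetylglucosaminyltransferase, went from 37968 ± 3468 to 4263 ± 3684, the sialyltransferases St3gal4 and St3gal6 from 11958 ± 3791 to 1851 ± 1000.0 and from 7291 ± 865 to 2546 ± 435, and the fucosyltransferase Fut4 from 7289 ± 1879 to 1678 ± 911. Gcnt4, St3gal1 and Galnt3 rose, from 95.1 ± 28 to 606 ± 173, from 455 ± 62.7 to 1404 ± 304 and from 2639 ± 308 to 4845 ± 849.

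Enteroendocrine genes were lower, 15 of 19 with 2 higher and a median of -2.685. Chga, which encodes the granule protein chromogranin A, had 1867, 1942, 1675, 2091 and 1415 in wild-type colon and 137, 155, 153, 484, 594, 560.5 and 295 in the tumours. The hormones Insl5, Gcg and Sst went from 3169 ± 641 to 157 ± 145, from 1087 ± 172 to 122 ± 77.8 and from 234 ± 102 to 18 ± 10.4, and the peptide processing enzyme Cpe from 4462 ± 891 to 813 ± 259.8. Pyy, which encodes peptide YY, did not pass (-1.43), and its tumours ranged from 241 to 11442. The lineage factors Neurog3 and Neurod1 went from 63.8 ± 15.7 to 14.5 ± 10.03 and from 107 ± 31.3 to 18.1 ± 10.7. Nts, the hormone neurotensin, rose, from 6.8 ± 3.68 to 67.8 ± 27.2, and so did the factor Isl1, whose tumour values of 241, 1347, 587, 104, 1862, 2900.0 and 192 spread from within the wild-type values of 180.4, 105, 138, 88.1 and 108 to far above them. Of 16 tuft cell genes, 8 fell and 2 rose. The taste pathway genes Trpm5 and Gnat3 went from 241 ± 53.1 to 30.4 ± 18.2 and from 49 ± 21.6 to 3.64 ± 2.79, and Pou2f3, the factor that makes tuft cells, from 58.1 ± 11.4 to 16 ± 7.23. Avil, an actin-binding protein used as a tuft cell marker, moved against the list: it had 192, 284, 208, 213 and 254 in wild-type colon and between 1927 and 5448, with a median of 3701, in the tumours, and rose by 4.07 on the log2 scale (SE 0.264, adjusted p = 6.27e-10 by limma). Alox5ap, the other member that rose (1.01), lost its call without wild-type replicate 1, 2, 3 or 5, or tumour replicate 4 or 7 (limma adjusted p = 0.0564 to 0.0736, each left out alone).

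**Figure D3:**
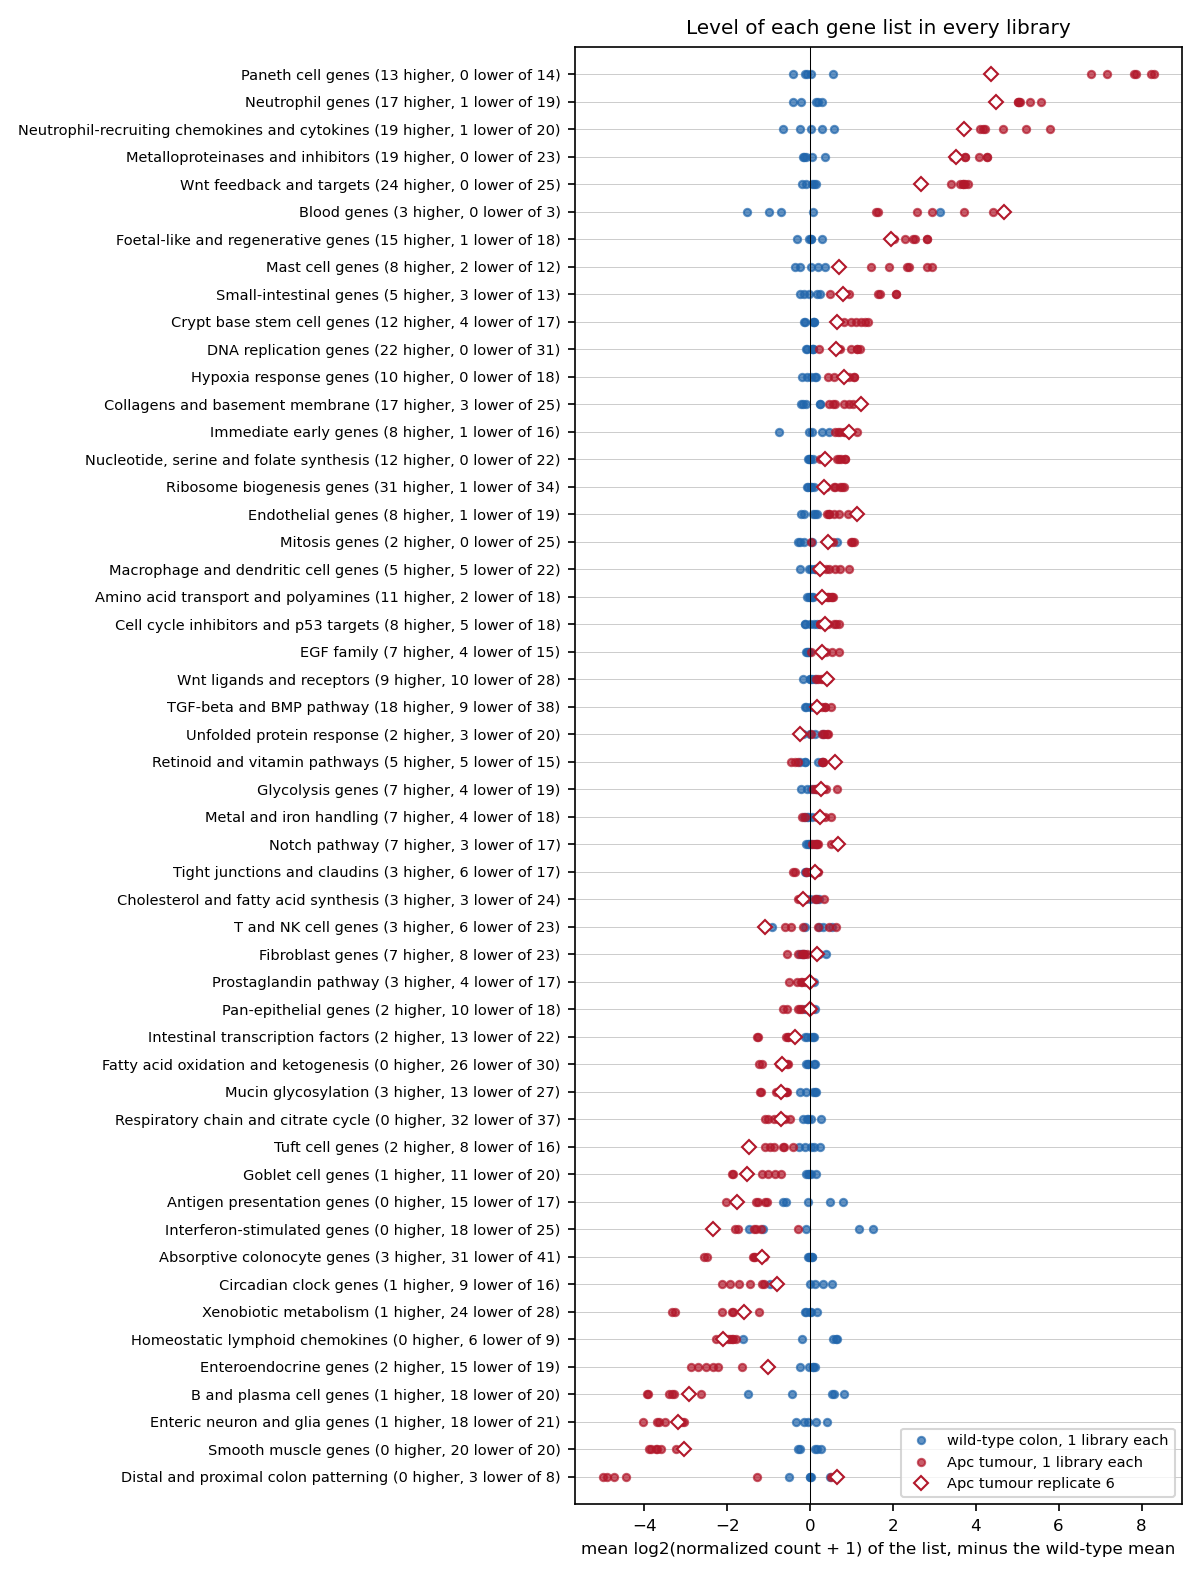
Mean log2(normalized count + 1) of each gene list minus its wild-type mean (horizontal axis), with 1 point per library: wild-type colon in blue, Apc tumours in red and tumour replicate 6 as an open diamond. Counts of members called are given beside each list, and the lists run from Paneth cell genes at the top to distal colon genes at the bottom. Replicate 6 is the lowest tumour for lists that include Wnt targets (2.67), Paneth cell genes (4.37) and neutrophil genes (4.48).

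DNA replication genes mostly rose and few mitosis genes passed the test. Of 31 DNA replication genes, 22 rose and none fell, with a median of 0.839. With the 12 libraries fitted alone 28 rose, in females alone 24 and in males alone 10. Mcm6, a subunit of the replicative helicase, had 2872, 2188, 2145, 2867 and 2815 in wild-type colon and 5642, 5151, 5154, 2839, 4368, 3669 and 4114 in the tumours. Replicate 4 lay within the wild-type range and the other tumours above it, and Mcm6 rose by 0.77 on the log2 scale (SE 0.226, adjusted p = 0.00796 by limma). Mcm7 went from 1807 ± 196 to 4219.9 ± 762, Gins1, another helicase component, from 138 ± 32.1 to 429.6 ± 92.8, Rfc3, a clamp loader, from 584 ± 43.3 to 1231 ± 245, and Rrm2, which makes deoxynucleotides, from 857 ± 280.4 to 2355 ± 574. Mitosis genes had a median of 0.624, but only Ccnb1 and Anln of 25 passed. The call of Ccnb1 was lost without wild-type replicate 1, 2, 4 or 5, or tumour replicate 1, 2 or 3 (limma adjusted p = 0.0546 to 0.113, each left out alone), and that of Anln without any 1 of the same libraries (limma adjusted p = 0.053 to 0.117). Their number depended on the setting: 21 of the 25 rose with the 12 libraries fitted alone, 14 in males alone, 1 in females alone and 9 with equal totals. Mki67, the usual proliferation marker, had 8994, 9523, 15359, 5412 and 7274 in wild-type colon and between 6300.2 and 12635, with a median of 8397, in the tumours. All tumours lay within the wild-type range, with a log2 fold change of -0.00 (SE 0.396, adjusted p = 0.994 by limma). Wild-type replicate 3 had the most Mki67 of all 12 libraries.

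The promoter windows of the replication genes were searched for the E2F motif TTTGGCGC on both strands. Of 26 genes with a window, 3 (11.5%) held it, against 0.84% of the tested genes with one and 0.417% of all windows. These were Mcm5, Pola1, which did not pass (0.61), and Mcm6, whose window (chr1:128359706-128359955, minus strand, GRCm38.p6 of RefSeq) is shown because it holds the motif at 2 places, 110 and 47 bases before the start, in capitals:
Mcm6: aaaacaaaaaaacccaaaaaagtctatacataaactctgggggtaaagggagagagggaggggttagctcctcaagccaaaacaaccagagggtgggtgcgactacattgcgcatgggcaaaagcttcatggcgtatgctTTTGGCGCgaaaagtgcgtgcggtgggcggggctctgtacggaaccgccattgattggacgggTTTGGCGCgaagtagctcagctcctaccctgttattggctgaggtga
Mcm5 went from 1653 ± 347 to 3015 ± 754.

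Ribosome biogenesis genes rose in 31 of 34 cases and fell in 1, at a median of 0.662. Of 25 nucleolar factors 23 rose and of 9 subunits and factors of RNA polymerases I and III 8 did. Npm1 and Ncl, abundant nucleolar proteins, went from 13827 ± 933 to 25530.1 ± 5646 and from 16422 ± 1307 to 25720.5 ± 2705. Mybbp1a rose by 1.20 on the log2 scale (SE 0.119, adjusted p = 1.56e-07 by limma), with values of 3594, 3419, 2913, 3013 and 3551 in wild-type colon and between 5818 and 8427, with a median of 7685, in the tumours. Utp20 was the exception and fell by 0.71 on the log2 scale (SE 0.144, adjusted p = 0.00046 by limma), a call lost with pan-epithelial scaling (limma adjusted p = 0.0592). Nucleotide, serine and folate synthesis genes rose in 12 of 22 cases and none fell. The serine pathway enzymes Phgdh and Psat1 went from 710.4 ± 151 to 2375 ± 908 and from 421 ± 77.7 to 1419 ± 329, the mitochondrial folate enzyme Shmt2 from 934 ± 53 to 2440.3 ± 501 and the CTP synthase Ctps from 1259 ± 166 to 2648 ± 290.2. Of 18 genes of amino acid transport and polyamines, 11 rose and 2 fell. The cystine transporter Slc7a11 went from 494 ± 95.6 to 2271 ± 1172 and the leucine transporter Slc7a5 from 560.5 ± 161 to 1779 ± 579, while Slc6a14, another amino acid transporter, went from 28530.2 ± 5604 to 6574 ± 2392.

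Among cell cycle inhibitors and p53 targets 8 of 18 rose and 5 fell, or 8 and 3 with equal totals. Cdkn2a, which encodes the inhibitors p16 and p19ARF, had 0, 1.23, 1.87, 1.55 and 5.46 in wild-type colon and 69.7, 72.4, 168, 212, 141, 71.2 and 332 in the tumours. It rose by 5.69 on the log2 scale (SE 0.565, adjusted p = 1.52e-07 by limma). Cdkn1c, another inhibitor, went from 215 ± 31.5 to 1480.2 ± 576, with replicate 6 lowest at 358. Cdkn1a, the main p53 target of this group, went from 9322 ± 2190.1 to 6528 ± 2226, and the neighbour of Cdkn2a, Cdkn2b, from 1395 ± 298 to 825 ± 211. The call of Cdkn1a was lost with equal totals, with pan-epithelial scaling and in males alone (limma adjusted p = 0.0768, 0.0788 and 0.0644). That of Cdkn2b was lost in males alone (limma adjusted p = 0.0621). The p53 targets Bax and Phlda3 went from 1201 ± 394 to 1926 ± 451 and from 473 ± 157 to 866 ± 258.

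Genes of mitochondrial energy production were mostly lower. Of 30 genes of fatty acid oxidation and ketone body synthesis, 26 fell and none rose, with a median of -0.911. Slc5a8 and Slc16a1, which take up butyrate, went from 19021 ± 3977 to 2458 ± 1245 and from 14032 ± 1815 to 4584 ± 1346. Slc25a20, the carnitine carrier, had 8349, 9311, 6353, 9452 and 6856 in wild-type colon and between 2063 and 3993, with a median of 3409, in the tumours, without overlap, and fell by 1.41 on the log2 scale (SE 0.146, adjusted p = 2.36e-07 by limma). Of 37 genes of the respiratory chain and citrate cycle, 32 fell and none rose, with a median of -0.720. Among 24 genes of the respiratory chain 23 fell. Cs, the citrate synthase, had 31557, 29688, 27374, 31218 and 29440.0 in wild-type colon and between 12503 and 15712, with a median of 14966, in the tumours. The succinate dehydrogenase subunits Sdha and Sdhb went from 15149 ± 2305 to 9372 ± 1792 and from 6458 ± 929 to 3682 ± 498, and the oxidase subunit Cox4i1 from 21311 ± 5659 to 13252 ± 2216. Pck1, the gluconeogenic enzyme, went from 4298 ± 911 to 483 ± 343 and the coactivators of mitochondrial genes Ppargc1a and Ppargc1b from 2408 ± 653 to 944 ± 373 and from 1027 ± 253 to 288 ± 121. Scaling to the pan-epithelial genes left 22 of the 37 and 22 of the 30 genes lower, with medians of -0.424 and -0.616.

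Glycolysis genes did not share a direction, with 7 of 19 higher, 4 lower and a median of 0.110. Slc16a3, which exports lactate, stood out: it had 274, 263, 154, 358 and 396 in wild-type colon and between 2748 and 6765, with a median of 4448, in the tumours, and rose by 3.97 on the log2 scale (SE 0.234, adjusted p = 1.76e-10 by limma). Pfkfb3, an activator of the pathway, went from 686 ± 165 to 1830.0 ± 657 and the enolase Eno1 from 9206 ± 789 to 14442 ± 1649, while the hexokinase Hk1 went from 9957 ± 607 to 4892 ± 1418. Ldha, the lactate dehydrogenase, did not pass (-0.10). Of 24 genes of cholesterol and fatty acid synthesis, 3 rose, 3 fell and 18 were not called, with a median of -0.025 that became 0.176 with equal totals. Acly, which supplies acetyl-CoA, went from 22502 ± 2156 to 10174 ± 1744. Fdft1, which makes squalene, was among the 3 that rose (0.46), a call lost without wild-type replicate 3 or 4 (limma adjusted p = 0.0524 to 0.0696, each left out alone).

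**Figure D4:**
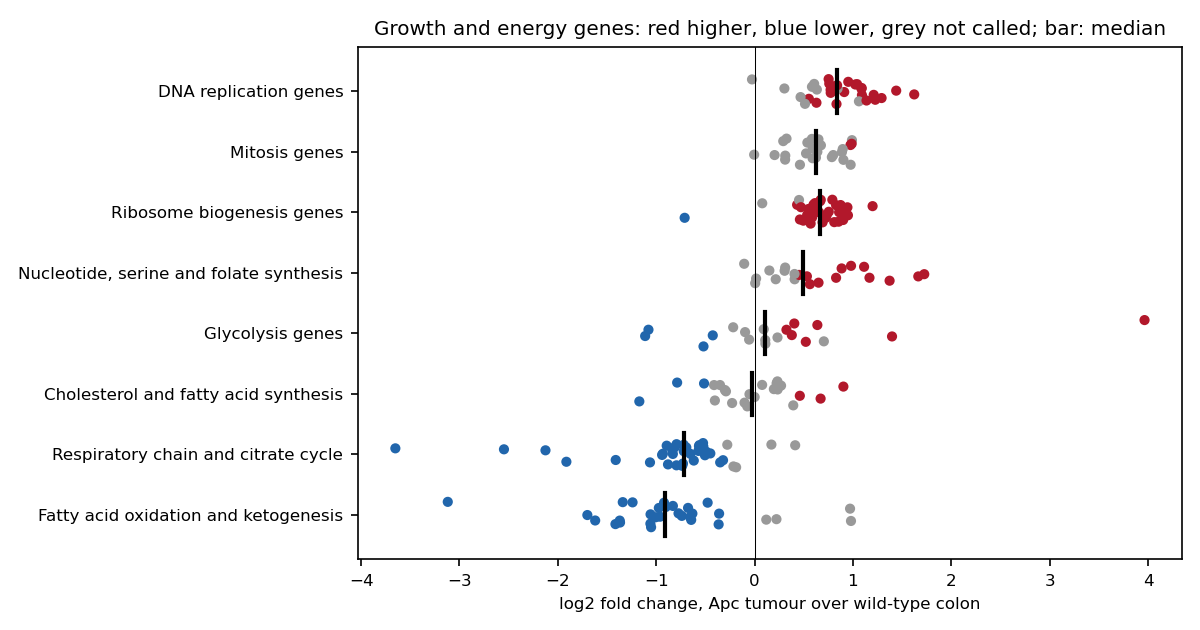
Log2 fold change of Apc tumours over wild-type colon (horizontal axis) for the members of 8 growth and energy lists, each gene a point, in red where called higher, blue where called lower and grey where not called, with a bar at each list's median. The medians of the replication, ribosome and nucleotide lists lie to the right of 0 (0.839, 0.662 and 0.493) and those of the respiratory and fatty acid oxidation lists to the left (-0.720 and -0.911), while most mitosis genes lie right of 0 without passing the test.

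Neutrophil genes mostly rose. Of 19 tested, 17 rose and 1 fell, with a median of 5.195, and the 17 did not overlap between the groups. S100a8, a calcium-binding protein that neutrophils carry in bulk, had 1.26, 0, 11.3, 4.31 and 0 in wild-type colon and 1866, 2492, 2293, 2207, 3638, 2053 and 4310.1 in the tumours. Its partner S100a9 rose by 9.78 on the log2 scale (SE 0.543, adjusted p = 8.38e-11 by limma) and S100a8 rose by 9.95 on the log2 scale (SE 0.609, adjusted p = 3.43e-10 by limma). The receptors Cxcr2 and Csf3r went from 92 ± 14.6 to 473 ± 69.8 and from 64 ± 15.2 to 572 ± 142, the protease Mmp9 from 62.2 ± 39.9 to 3359.9 ± 1351, and Retnlg, a resistin-like protein, from 1.17 ± 2.02 to 952 ± 588. Lcn2, a siderophore binder that inflamed epithelium also makes, went from 46.7 ± 22.1 to 8067 ± 5453. Ly6g, a surface marker of neutrophils with close copies, was the exception: it had 7394, 8335, 4037, 9116 and 8474 in wild-type colon, where it made up most of the summed level of the list, and fell by 1.71 on the log2 scale (SE 0.434, adjusted p = 0.00299 by limma). The ligands that recruit neutrophils rose with them, 19 of 20 with 1 lower and a median of 4.987. Cxcl3 was listed at 0 in 4 of 5 wild-type libraries and at 2.28 in the other, and had 391, 1037, 799.7, 367, 296, 222 and 450.0 in the tumours. Cxcl1, Cxcl2 and Cxcl5 went from 17.2 ± 15.4 to 1057 ± 601, from 3.89 ± 3.3 to 1352 ± 629 and from 63.5 ± 21.2 to 6223 ± 3889. The cytokines Il1b, Il6, Tnf and Il23a went from 114 ± 56.9 to 2629 ± 1301, from 2.14 ± 1.77 to 194 ± 231, from 46.4 ± 45.4 to 449.8 ± 138 and from 7.36 ± 2.93 to 400.4 ± 149. Il17a, scarce in wild-type colon, had 66.2, 255, 104, 6.33, 28.1, 15.2 and 12.1 in the tumours, and the 3 females held the highest values. The difference in effect between the sexes was not called for Il17a (limma adjusted p = 0.29). 

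In bulk tissue, fewer cells of a type and less RNA per cell cannot be told apart, and this holds for each list of cell markers here and below. Mast cell genes rose in 8 of 12 cases and fell in 2. The mucosal proteases Mcpt1 and Mcpt2, close copies of each other, went from 40.00 ± 11.3 to 600.1 ± 327 and from 19.4 ± 9.37 to 386 ± 212, and Hdc, which makes histamine, from 20.9 ± 6.17 to 448 ± 104, while the connective tissue protease Cma1 went from 269 ± 94.3 to 115 ± 59.2. Macrophage and dendritic cell genes did not share a direction: 5 of 22 rose and 5 fell, near the 23.9% and 25.2% of all genes that did. With equal totals 10 rose and 4 fell. The general macrophage markers Adgre1, Csf1r and C1qa did not pass (0.20, 0.33 and 0.25). Arg1, an arginase of activated macrophages, had 12.6, 24, 6.09, 11.5 and 13.7 in wild-type colon and between 2359 and 3875, with a median of 2660.2, in the tumours, and rose by 7.76 on the log2 scale (SE 0.324, adjusted p = 1.53e-12 by limma). Spp1, which encodes osteopontin, went from 6.07 ± 3.54 to 2787 ± 2593, and Itgam, an integrin shared with neutrophils, from 309 ± 93.1 to 1105 ± 137. Ly6c2, a monocyte marker, went from 584 ± 56 to 138 ± 89.6, and of 6 dendritic cell genes 4 fell, among them the chemokine receptor Xcr1 (-1.76), with tumour values of 37.2, 28.8, 17.1, 31.6, 22.7, 9.47 and 14.5.

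B cell genes fell without exception. All 13 tested fell and none overlapped, and with plasma cell genes 18 of 20 fell and 1 rose, with a median of -3.557. Ms4a1, which encodes CD20, had 88.6, 1093, 434, 1064 and 861 in wild-type colon and between 7.49 and 22.6, with a median of 13.6, in the tumours. Wild-type replicate 1 had far less than the other wild-type libraries and still exceeded every tumour. The complement receptor Cr2 went from 448 ± 236 to 10.3 ± 6.11, Ighd, the constant region of IgD, from 1212 ± 709 to 11.5 ± 5.72, Fcmr, the IgM receptor, from 396 ± 260.0 to 3.17 ± 2.05, and the B cell factor Pax5 from 108 ± 70.8 to 0.84 ± 1.21. The plasma cell products Jchain and Igha fell with overlap between the groups, from 30415 ± 10409 to 11602 ± 6359 and from 83145 ± 32037 to 35282 ± 19083. The call of Igha was lost without wild-type replicate 4, or tumour replicate 2 or 3 (limma adjusted p = 0.0525 to 0.0626, each left out alone). Sdc1, a plasma cell marker that epithelium also makes, rose, from 7613 ± 1379 to 19002 ± 3324. Of 9 chemokines and receptors of lymphoid tissue 6 fell and none rose. Ccr6, which brings B cells and others to lymphoid follicles, went from 106 ± 53.9 to 4.99 ± 2.83 and Cxcr5 from 323 ± 169.8 to 39.4 ± 7.17, while Cxcl13 did not pass (-1.24). Ccl20, the ligand of Ccr6, fell (-1.60), a call lost without wild-type replicate 2, 3, 4 or 5, or tumour replicate 1, 4, 6 or 7 (limma adjusted p = 0.0523 to 0.0944, each left out alone). T and NK cell genes were scarce and mixed, with 3 of 23 higher and 6 lower, where 23.9% and 25.2% of all genes were. Cd3e, Cd3d and Lck did not pass (-0.89, -0.38 and 0.02), Cd4 and Cd8a went from 252 ± 46.7 to 101 ± 27.7 and from 74.7 ± 32.7 to 23.5 ± 7.48, and the cytotoxic protease Gzmb went from 20.01 ± 18.7 to 104 ± 58.9. In males alone 12 of the 23 fell and in females alone 3 did, and the difference between the sexes was not called for any member.

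Antigen presentation genes fell in 15 of 17 cases with none higher. All 8 class II genes fell. H2-Aa, a class II chain, had 4180.1, 5585, 4751, 8781 and 6128 in wild-type colon and between 1019 and 2478, with a median of 1591, in the tumours, and fell by 1.90 on the log2 scale (SE 0.276, adjusted p = 1.41e-05 by limma). Ciita, the switch of class II genes, went from 644 ± 236 to 116 ± 41, the class I gene H2-K1 from 35256 ± 11985 to 15774 ± 4733 and its light chain B2m from 21378 ± 7668 to 10826 ± 4716. The call of B2m was lost without wild-type replicate 4 or 5 (limma adjusted p = 0.0554 to 0.0776, each left out alone). The 2 wild-type males had the highest mean log2 level of the list, 0.80 and 0.48 relative to the wild-type mean, against -0.66, -0.04 and -0.58 in the females. In males alone all 17 fell and in females alone 9 did, among them 2 of the 9 class I genes, of which 7 fell in the full fit and 4 with equal totals. The difference between the sexes was not called for any member of the list. Interferon-stimulated genes fell in 18 of 25 cases with none higher, at a median of -1.576. Only 5 of the 25 lay below wild-type colon without overlap, where 15.4% of all genes did. Isg15, a ubiquitin-like protein induced by interferon, had 396, 1276, 251, 5958 and 8538 in wild-type colon and between 105 and 416, with a median of 184, in the tumours. The 2 wild-type males stood at the top and females 1 and 3 within the range of the tumours. Irf7, a factor that amplifies the interferon response, had 2067, 3981, 1574, 10555 and 12301 in wild-type colon and between 528 and 1287, with a median of 1036, in the tumours. In males alone 22 of the 25 fell (median -2.762), and in females alone 3 fell and 3 rose (median -0.407). No member passed the test of the difference between the sexes.

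Smooth muscle genes fell in all 20 cases, none overlapped between the groups, and their summed level lay between 324186 and 466252 normalized counts in wild-type colon and between 51322 and 67021 in the tumours. Myh11, the smooth muscle myosin, had 74367, 47074, 55867, 48931 and 40650.5 in wild-type colon and between 1128 and 3667, with a median of 1607, in the tumours, and fell by 4.81 on the log2 scale (SE 0.347, adjusted p = 2.83e-09 by limma). Des, which encodes desmin, went from 31818 ± 8031 to 758 ± 411, Cnn1, a calponin, from 20434 ± 5468 to 499.6 ± 265, Tagln from 42606 ± 9304 to 2985 ± 501, Mylk, the myosin light chain kinase, from 23109.5 ± 4261 to 2889.9 ± 417, and Pln, a regulator of the calcium pump, from 648 ± 161 to 6.65 ± 9.29. The promoters of this list were searched for the CArG box, the site of serum response factor. Of 16 genes with a window, 1 (6.25%) held it in the 250 bases before the start, against 1.45% of the tested genes and 1.47% of all windows. It was Myl9, the regulatory light chain, whose bases before the gene (chr2:156775214-156775419, plus strand, GRCm38.p6 of RefSeq) are shown with the box in capitals, as an example of a muscle gene that fell:
Myl9: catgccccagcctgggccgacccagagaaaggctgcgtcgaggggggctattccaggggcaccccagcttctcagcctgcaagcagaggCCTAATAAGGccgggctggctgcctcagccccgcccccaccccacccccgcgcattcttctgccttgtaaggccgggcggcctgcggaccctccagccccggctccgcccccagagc
Myl9 had 16811, 11959.9, 14531, 17887 and 12730.4 in wild-type colon and between 948 and 1953, with a median of 1078, in the tumours, and fell by 3.58 on the log2 scale (SE 0.178, adjusted p = 1.55e-11 by limma). 

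Enteric neuron and glia genes fell in 18 of 21 cases and 1 rose, and their summed level lay between 10699 and 13694 normalized counts in wild-type colon and between 4219 and 7930.4 in the tumours. Vip, a neuropeptide, went from 1553 ± 726 to 29.1 ± 34.7, Nos1, which makes nitric oxide, from 519 ± 129.8 to 46.6 ± 16.5, and the glial factor Sox10 from 105 ± 20.3 to 3.47 ± 2.9. The serotonin receptor Htr3a and the neurokinin receptor Tacr2, which were in no list, went from 283 ± 80.4 to 3.02 ± 3.59 and from 207 ± 67.7 to 3.45 ± 4.61. Ret, a receptor of enteric neurons, rose, from 466 ± 112 to 1074 ± 400.2, with overlap. The muscle and nerve genes thus moved with the same contrast as each loss described above, and their part in those losses was not tested.

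Fibroblast genes split: 7 of 23 rose and 8 fell, and with equal totals 10 rose and 7 fell. The receptors Pdgfra and Pdgfrb went from 2168 ± 703 to 4779 ± 623 and from 1049 ± 134 to 2559 ± 260.5, and the collagen chain Col1a1 from 8129 ± 1053 to 27161 ± 12064. Rspo3, a Wnt agonist of the cells around the crypt, went from 296 ± 59.4 to 50.02 ± 21.4, Dpt, a matrix protein, from 3282 ± 769.8 to 870.2 ± 414, and Postn from 13608 ± 4557 to 5737 ± 1549.9. Grem1, a BMP inhibitor of crypt fibroblasts, did not pass (0.41). Of 19 endothelial genes 8 rose and 1 fell, and 11 rose and none fell with equal totals. Angpt2, Apln and Esm1, genes of sprouting vessels, went from 162 ± 40.3 to 1088 ± 475, from 81.2 ± 15.6 to 514 ± 225 and from 55.9 ± 12.3 to 319.5 ± 185, whereas the general markers Pecam1 and Kdr did not pass (0.35 and 0.19). The haemoglobin genes Hba-a2 and Hbb-bs and the red cell enzyme Alas2 rose, by log2 fold changes of 2.89, 3.04 and 3.22, with overlap: the sum of the 3 lay between 714 and 23749 normalized counts in wild-type colon and between 7208 and 58281 in the tumours. Wild-type replicate 4 had the most of the wild-type libraries. In males alone none of Hba-a2, Hbb-bs and Alas2 passed, with log2 fold changes of 1.46, 1.56 and 2.12 (limma adjusted p = 0.317, 0.28 and 0.139), while all 3 rose in females alone.

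Metalloproteinases and their inhibitors rose in 19 of 23 cases and none fell, with a median of 3.364. Mmp10, a stromelysin of wound edges, had 30.3, 14.8, 33.9, 47.4 and 46.7 in wild-type colon and between 5525 and 34671, with a median of 11357, in the tumours, and rose by 8.50 on the log2 scale (SE 0.433, adjusted p = 2.49e-11 by limma). Mmp13, a collagenase, went from 117 ± 31.2 to 15050.1 ± 11561, Mmp14, a membrane-bound activator, from 4703 ± 521 to 18606 ± 2311, Plat, the tissue plasminogen activator, from 327 ± 145 to 9315 ± 3998, and the surface protease Adam8 from 101 ± 19.2 to 1937 ± 562. The inhibitor Timp1 went from 59.1 ± 16.9 to 603 ± 241, while Timp2 and Timp3 did not pass (0.20 and 0.06). Collagen and basement membrane genes rose in 17 of 25 cases and fell in 3. The laminin chain Lama1 went from 81.7 ± 23.1 to 1217 ± 244, the basement membrane collagens Col4a1 and Col18a1 from 8052 ± 1212 to 24523 ± 4485 and from 2059 ± 357 to 10534 ± 2299, and Col12a1 from 2005 ± 486 to 8104 ± 1945. Col4a5 and Col4a6, a neighbouring pair of collagen genes, moved the other way, from 816 ± 168 to 175 ± 53.1 and from 375 ± 124 to 30.4 ± 14.7.

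In the TGF-beta and BMP pathway 18 of 38 genes rose and 9 fell. Among the ligands, Inhba and Inhbb, which form activins, had 73.2, 62.8, 68.7, 48.9 and 39.9 and 53, 50.2, 77.4, 81.9 and 62.7 in wild-type colon, and rose from 58.7 ± 13.9 to 1059.9 ± 420.2 and from 65 ± 14.2 to 1075 ± 307. Tgfb1 went from 783 ± 136 to 1506 ± 206 and Bmp7 from 324 ± 41.3 to 2019.8 ± 694, whereas Bmp2 and Bmp3 went from 3465 ± 877 to 1803 ± 485 and from 1105 ± 255 to 359 ± 187. Among inhibitors, Fst, the activin-binding follistatin, and Bambi, a decoy receptor, went from 43 ± 21.6 to 485 ± 235 and from 344 ± 63.4 to 1498 ± 1286, while Chrdl1 went from 954 ± 288 to 51.4 ± 39. Of 12 Smads and targets 7 rose and none fell, among them Tgif1 and Tgif2, the repressors deleted in the series' other tumours, which went from 964 ± 143 to 3815 ± 803 and from 161 ± 50.1 to 642 ± 92.1. Smad4, Smad2 and Smad7 did not pass (-0.23, -0.01 and 0.04).

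Wnt ligands and receptors, apart from the targets above, split into 9 of 28 higher and 10 lower. Wnt10a and Wnt6 had 0, 3.43, 4.35, 7.18 and 7.97 and 48, 35.4, 56.5, 40.2 and 51.3 in wild-type colon, and went from 4.59 ± 3.19 to 867 ± 728 and from 46.3 ± 8.49 to 1470.4 ± 953. The receptor Fzd10 went from 5.83 ± 1.38 to 407 ± 313 and the ligand Wnt5a, made by stroma, from 531 ± 144 to 2190.3 ± 632. The ligands Wnt4 and Wnt2b and the secreted binders Sfrp4 and Sfrp5 went from 437 ± 123 to 125 ± 88.8, from 353 ± 103 to 147 ± 56.3, from 128 ± 72.9 to 19.7 ± 12.3 and from 77.2 ± 18 to 13.7 ± 4.13, and the epithelial receptor Fzd5 from 3845 ± 524 to 1717 ± 747. In the Notch pathway 7 of 17 rose and 3 fell: the ligands Jag2 and Dll4 went from 167 ± 29.5 to 664 ± 145 and from 513 ± 83.6 to 1065 ± 184, the ligand Dll1 of secretory cells from 751 ± 223 to 239.9 ± 139.7 and the target Hes1 did not pass (-0.16). Of 15 EGF family genes 7 rose and 4 fell. The ligands Ereg, Btc and Nrg1 went from 448 ± 97.1 to 2581 ± 1682, from 325 ± 26 to 1249.5 ± 542 and from 172 ± 70.4 to 617 ± 164, and Lrig3, a relative of Lrig1, from 2458 ± 404 to 701 ± 278. Of 17 prostaglandin genes 3 rose and 4 fell, where 23.9% and 25.2% of all genes did. Ptgs2, the inducible cyclooxygenase, had 286, 345, 465, 280.2 and 204 in wild-type colon and between 717 and 6332, with a median of 3431, in the tumours. Hpgd and Slco2a1, which break down and take up prostaglandin E2, went from 6993 ± 707 to 1504 ± 768 and from 3932 ± 1322 to 999 ± 468.

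Retinoid genes split, with 5 of 15 higher and 5 lower. Stra6, a retinol transporter, had 122, 277, 140.1, 251 and 323 in wild-type colon and between 3739 and 11171, with a median of 7007, in the tumours, and rose by 4.97 on the log2 scale (SE 0.314, adjusted p = 4.83e-10 by limma). The retinal oxidising enzyme Aldh1a3 went from 351 ± 98.6 to 5585 ± 2630.4, while Aldh1a1 and Rbp2 went from 1769.7 ± 451 to 314 ± 241 and from 1012 ± 365 to 184 ± 152. Of 17 tight junction genes 3 rose and 6 fell, or 4 and 2 with equal totals. Cldn4, a barrier-forming claudin, had 1171, 1232, 2138, 1877 and 1205 in wild-type colon and between 13389 and 31996, with a median of 15483, in the tumours, and rose by 3.50 on the log2 scale (SE 0.236, adjusted p = 1.06e-09 by limma). Cldn15, a claudin of the gut that passes sodium, went from 2373 ± 655 to 964 ± 730.2. Hypoxia genes rose in 10 of 18 cases and none fell. Lox, a collagen cross-linker, went from 295 ± 176 to 2596 ± 809.5, Hilpda, a lipid droplet protein, from 167 ± 40.2 to 764 ± 166, and Bnip3, a mitophagy receptor, from 1417 ± 323 to 3378 ± 1209, while Car9 did not pass (-0.11). Immediate early genes rose in 8 of 16 cases and fell in 1: Jun went from 3332 ± 910.4 to 12395 ± 1453 and Ier3 from 283 ± 86.1 to 4163 ± 1193, and Fos from 5703 ± 2102 to 4082 ± 2342, a call lost without wild-type replicate 2 or 3, or tumour replicate 1, 2, 3, 4 or 5 (limma adjusted p = 0.0522 to 0.151, each left out alone). Of 20 genes of the unfolded protein response 2 rose and 3 fell, and the chaperone Hspa5 did not pass (0.07). In females alone 11 rose and 2 fell (median 0.668), with Hspa5 among those that rose (0.67, limma adjusted p = 0.0397), and in males alone 1 rose and 4 fell (median -0.356). The difference between the sexes was not called for any member.

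Clock genes fell in 9 of 16 cases and 1 rose. Dbp, an output gene of the clock, had 6835, 4994, 298, 3723 and 6079.8 in wild-type colon and 45.3, 80.7, 90.5, 173, 561, 600.2 and 177 in the tumours. Wild-type replicate 3 stood apart from the other 4 wild-type libraries and lay among the tumours. Nr1d1, a repressor of the clock, had 6961, 5653, 4935, 6012 and 6734 in wild-type colon and between 449.8 and 1561, with a median of 733, in the tumours, and fell by 3.00 on the log2 scale (SE 0.398, adjusted p = 5.17e-06 by limma). Clock and Arntl, which encode its activators, did not pass (-0.04 and -0.46). The time of day at which tissue was taken is not stated in the labels. Of 18 genes of metal and iron handling 7 rose and 4 fell. The iron oxidase ceruloplasmin, Cp, went from 442 ± 101 to 5362 ± 1899 and the haem oxygenase Hmox1 from 202 ± 41.9 to 1405 ± 398. The exporter of manganese Slc30a10 went from 1156 ± 724 to 19.1 ± 21.1.

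Some of the clearest differences by p-value lay outside the lists. Adcy8, an adenylate cyclase, had 11.6, 7.01, 16.2, 4.95 and 7.85 in wild-type colon and between 2476 and 5889.9, with a median of 3312, in the tumours, and rose by 8.58 on the log2 scale (SE 0.185, adjusted p = 9.46e-17 by limma). Vash2, a vasohibin, went from 27.7 ± 8.54 to 908 ± 98.7, the sodium-proton exchanger Slc9a4 from 1.57 ± 1.23 to 492 ± 106, and the cGMP-dependent kinase Prkg2 from 35.7 ± 6.67 to 2721 ± 921. Qpct, which makes pyroglutamate ends of peptides, was among the 6 decreases with the smallest p-values and went from 1461 ± 151 to 69.7 ± 8.64. Il22ra2, the soluble trap of interleukin 22, and Cfi, a complement protease, went from 390.2 ± 114 to 4.23 ± 2.7 and from 3.45 ± 3.02 to 1948 ± 1080.1. The muscle creatine kinase Ckm and the synaptic protein Rims1 went from 363 ± 111 to 6.08 ± 5.46 and from 235 ± 81.5 to 3.06 ± 2.74.

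Of the 10 genes with the widest spread of log2 values among the tumours (at a mean of at least 100 normalized counts in them), 5 lie at or beside the 5′ end of the HoxD cluster, whose homeobox genes pattern the hindgut. Hoxd13 (chromosome 2, 74668310 to 74671599) had 8441, 6282, 5463, 3548 and 6479.7 in wild-type colon. In the tumours it had 37.9, 6670.5, 7.68, 11.6, 7139.7, 10231 and 2.42 for replicates 1 to 7. The values of replicates 2, 5 and 6 lay in or above the wild-type range and those of the other 4 far below it. Hoxd13 did not pass the test (-5.05, SE 2.15, limma adjusted p = 0.0598). Its neighbours Hoxd11, Hoxd10 and Evx2 had 5.66, 822, 3.88, 1.14, 1678, 1834 and 3.48, 0.74, 383, 2.56, 2.11, 655, 918 and 3.23 and 0.74, 433, 0.85, 2.11, 537, 1041 and 0 in the same order, with the same 3 tumours high. Hoxd12 had 2.23, 2.47, 0, 0, 2193, 614 and 1.61, with replicate 2 low. Hoxd10 passed (-4.11), a call lost without wild-type replicate 1, 2, 3, 4 or 5, or tumour replicate 1, 3, 4 or 7 (limma adjusted p = 0.0604 to 0.111, each left out alone). Hoxb13, on another chromosome, had 1542, 5271, 5469.7, 1088, 9351, 8753 and 1279, and its 2 highest tumours were replicates 5 and 6. Hoxa13, from the HoxA cluster, had 788 ± 172 in wild-type colon and 710.1 ± 221 in the tumours and did not pass (-0.18).

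Among other genes with a wide spread among the tumours, Fxyd4 and Klk15 shared an order, with the same tumours highest as for Hoxd13. Ceacam2, Myl1 and Ang3 followed other orders. Fxyd4, a subunit regulating the sodium pump in colonocytes, had 14.9, 326, 224, 9.55, 844, 1582 and 0.81, against 1601, 1099.9, 1754, 845 and 1141 in wild-type colon. Ceacam2, an adhesion protein with a close copy, had 189.7, 413, 76.9, 238, 15567, 18053 and 23814 in the tumours and 220.2, 283, 279, 327 and 211 in wild-type colon, so that replicates 5, 6 and 7 stood far above all other libraries. Myl1, a myosin light chain of skeletal muscle, had 21.1, 3973, 3435, 548, 2081, 1805 and 4.9 in the tumours. Klk15, a kallikrein, had 31.2, 794, 460.0, 1.05, 858, 1803 and 0.81, and Ang3, an angiogenin with close copies, 26.8, 2.47, 21.3, 3684, 426, 204 and 1281. Over all genes the median SD of log2 values was 0.358 among the tumours and 0.279 among the wild-type libraries.

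**Figure D5:**
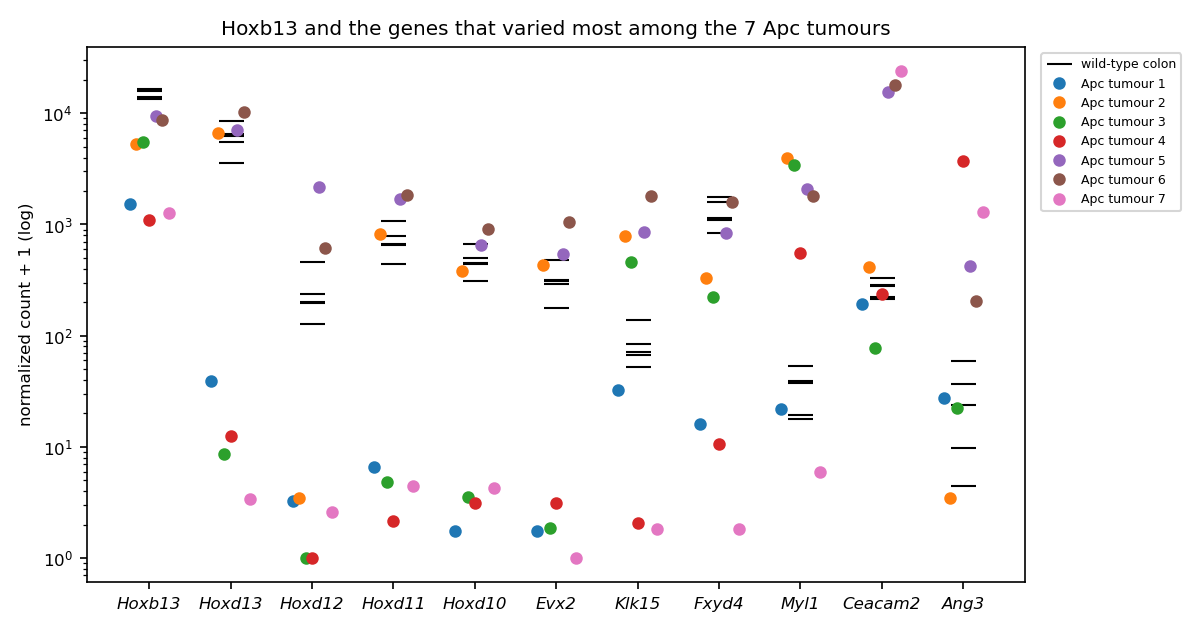
Normalized counts + 1 on a log axis for Hoxb13 and the 10 genes with the highest SD of log2 values among the Apc tumours. Each tumour keeps its colour across genes and black bars mark the 5 wild-type libraries. For Hoxd13 the tumours 2, 5 and 6 lie beside the wild-type bars and the tumours 1, 3, 4 and 7 far below.

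The effect was compared between the sexes as the difference in males minus that in females. Of 18445 genes, 2 passed (0.0108%), and 2134 had an unadjusted p under 0.05. Both lie next to each other on chromosome 19, Pdzd7 at 45026906 to 45045717 and Sfxn3 at 45047503 to 45056383 (GRCm38). Pdzd7, a scaffold protein of hair cells, had 462, 412, 381, 11.6 and 25.9 in wild-type colon and 84.8, 107, 97.3, 86.2, 126, 112 and 55.3 in the tumours, with 3 females first in both groups. The wild-type females had far more than the wild-type males, and the tumours of both sexes lay between them. Its effect was -2.11 in females and 2.32 in males (limma adjusted p = 0.00148 for the difference of 4.42). Sfxn3, a mitochondrial serine transporter, had 1546, 1364, 1369, 674 and 639 in wild-type colon and 1171, 1114, 895, 1746, 1501, 1888 and 1563 in the tumours, with a difference of 1.78 (limma adjusted p = 0.00148). The wild-type males were 2 mice, and no gene passed when wild-type replicates 2 and 4 were left out, which leaves 1 wild-type male. The next genes, Ppid and Hsp90aa1, a cyclophilin and a chaperone that work together, had differences of -1.48 and -1.75 (limma adjusted p = 0.0852 for each). Hsp90aa1 had 27244, 35942, 37760.4, 18081, 17418, 11072 and 16504 in the tumours, higher in the 3 females than in the 4 males.

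By position, the changed genes were spread over all autosomes. Between 21.9% and 31.7% of the genes tested on each autosome were higher and between 20.3% and 30.1% lower. Chromosome 18, which carries Apc, had the highest share of higher genes, 31.7% of 429, the lowest share of lower genes, 20.3%, and the highest median of the autosomes, 0.128. Chromosome 17 had the lowest share of higher genes, 21.9% of 796.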

How the data were processed

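Poly(A) RNA of mouse colon and colon tumours was sequenced as 75-base single-end reads on an Illumina NextSeq 500, per the labels' protocols. The authors deposited 1 table of 32694 gene symbols by 19 libraries, and Salmon, DESeq2 and the builds GRCm38 and mm10 are named in the submitters' processing notes, without versions or settings. Its values are normalized counts, a signal in which, as the deposited values show, reads were divided by a size factor per library. The most frequent low value of each library was taken as 1 read, after a fine adjustment that gave the most whole numbers of reads. By this step, 86.0% to 87.4% of low values in the 12 libraries were whole numbers of reads within 0.1 of a step. That is too few to recover the reads for a count test. Neither the annotation nor the strand setting of the counting is stated in the labels, so reads of a gene and an overlapping or antisense partner cannot be told apart.

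Groups came from the genotype labels and sexes from the sex labels. Genes with at least 10 normalized counts in 5 or more libraries were kept, and log2(normalized count + 1) was fitted with limma 3.58.1 in R 4.3.3 on all 19 libraries, with group and sex as terms and a robust, intensity-dependent variance. P-values were adjusted over 18445 genes by the Benjamini-Hochberg method and called at 0.05. The sex difference came from a fit of group by sex means. Labels number the libraries only by order, and nothing says more of their independence than 1 tumour per mouse. No 2 libraries were identical. In simulated data of 18445 genes varying independently, 100 were changed 2-fold and 100 4-fold. The fit recovered 57 of 100 2-fold and 92 of 100 4-fold changes with 6.88% false calls among 160 calls, and for the sex difference 18 and 57 of 100. A far larger share of genes was called in the real data, so these rates need not hold there.

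Reads per library, as estimated from the steps, numbered 31060072 to 49127510. The 52 gene lists hold 1069 genes, of which 1038 were tested. The members and lists were chosen with earlier results of these data known. Outside the lists, genes other than predicted genes, clone names and immunoglobulin or T cell receptor segments were named by a rule: the 12 largest changes each way, the 10 largest gains and losses in reads, the 10 with the widest spread among tumours, the 6 smallest p-values each way and the 4 smallest p-values for the sex difference. In each list up to 4 members with the smallest p-values in the main direction and up to 2 in the other were named. Further list members were named after their values were seen. A few genes that the rule names are not reported here. Coordinates are from GENCODE M21 (GRCm38), which matched 15954 (86.5%) of the genes tested, and promoter sequences from RefSeq (GRCm38.p6). Alternatives covered the scaling, the filter, the pseudocount, the covariate, library weights, each sex alone, the 12 libraries alone and leaving out each library.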

Additional observations from a re-analysis of the deposited data

Results flagged for a closer look

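Of 710 groups of values (the wild-type libraries or the tumours for each gene named), 37 or 5.21% held a library far from the others by Dixon's test on log2 values, and chance flags about 1 in 20 such groups. Normalized counts are given in parentheses. Tumour replicate 6 accounted for 14 of them. It was lowest for Cdkn1c (358), Ctnnb1 (45779), Cxcr2 (338), Defa17 (182), Defa24 (95.6), Dkk2 (2154), Hdc (243), Lef1 (318), Msi1 (31.4), Myc (1613), Nkd1 (2882), Tnfrsf19 (331) and Wif1 (2748) and highest for Pln (27.5). Tumour replicate 1 was lowest for Jun (9512) and highest for Aqp4 (14470.1). Tumour replicate 4 was lowest for Mcm5 (1455) and highest for Cpe (1396). Tumour replicate 5 was lowest for Col12a1 (4181), Grem1 (182) and Lox (1054). Tumour replicate 7 was lowest for St3gal6 (1691) and highest for Cldn4 (31996), Eno1 (17945) and Ldha (43587). Wild-type replicate 1 was lowest for Cr2 (79.2) and highest for Abcb1a (42903). Wild-type replicate 2 was highest for Cxcl3 (2.28), Cxcr2 (118), Defa24 (5.71) and Olfm4 (1.14). Wild-type replicate 3 was lowest for Dbp (298) and Ly6g (4037). Wild-type replicate 4 was highest for Alas2 (253) and Vip (2844). Wild-type replicate 5 was lowest for Mmp14 (3783) and highest for Cma1 (437).

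For Pdzd7 and Sfxn3 the effect in males minus that in females was 4.42 and 1.78 on the log2 scale and passed the test of the difference, as described above. The wild-type males were 2 mice.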

How the results depend on the processing

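Of 355 genes named, 306 passed the test, 259 of them under each of 26 alternative settings that tested them, while 47 lost the call under at least 1 setting and 12 without some single library. With libraries scaled to the pan-epithelial genes, 6667 genes were higher and 3032 lower, and in males alone 3039 were lower. Fitting the 12 libraries alone called 5100 genes higher and 5134 lower, library weights called 11193 genes in all, and setting aside the 2 wild-type libraries rich in Rn45s, an alternative chosen after seeing the data, called 3605 and 3761. Without 1 library at a time the genes called numbered 8137 to 9211, with 3942 to 4493 higher and 4195 to 4718 lower, and members of the lists 681 to 738, against 728. The sex difference called 2 to 40 genes without 1 library, 11 with the 12 libraries alone and 0 without the libraries rich in Rn45s, against 2. Its counts were 40 without wild-type replicate 2, 4 without wild-type replicate 3, 5 without wild-type replicate 5, 21 without tumour replicate 1 and 7 without tumour replicate 4. The direction turned for Hsp90aa1 (-0.65) and Pdzd7 (2.32) in males alone and for Epcam with pan-epithelial scaling (0.29) and quantile normalization (0.52). The cause was not tested. DNA replication genes called higher numbered 10 in males alone, and mitosis genes 4 after quantile normalization and 10 with pan-epithelial scaling. Medians changed sign with pan-epithelial scaling for all genes (-0.012 to 0.281), Wnt ligands and receptors (-0.109 to 0.185), tight junctions (-0.276 to 0.019), prostaglandin genes (-0.267 to 0.028), cholesterol and fatty acid synthesis (-0.025 to 0.27) and cell cycle inhibitors (-0.001 to 0.294). No paired analysis was possible because the replicate numbers follow the order of the samples and pair no mice across groups. The number of mice, with 2 wild-type males, limits the precision.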
